A study of Mus musculus with 10 samples.

Results

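This account covers 9 genes through which phagocytes take up dying cells and lipid debris, read in the RNA of microglia from mice given vehicle or the CSF1R antagonist GW2580. The genes were listed by name and by no measured value, although earlier results of these data were known, and they are the TAM receptor kinases Mertk, Axl and Tyro3, the bridging ligands Gas6, Pros1 and Mfge8, and the scavenger receptors Cd36, Msr1 and Stab1. They are 9 of the 46152 genes counted, and 9 of 9 were above 1 CPM, the count scaled to the size of the library, in at least 3 libraries and entered the test, which covered 28419 genes.

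C57BL/6J mice aged 8 to 12 weeks were gavaged daily for 8 days. The 5 Vehicle mice received 0.1% Tween 80 with 0.5% hydroxymethyl propyl-cellulose, and the 5 GW2580 mice received GW2580 at 80 mg/kg/d in the same fluid. Of each group, 2 mice were male and 3 female. A library stands for 1 mouse and is called here by group and number. Brains were dissociated with Accutase, and the cells were enriched on Percoll and then by magnetic selection for CD11b, a surface protein that monocytes, granulocytes and brain border macrophages also carry. The drug was given to the whole animal, and CSF1R is carried by monocytes and macrophages as well as by microglia.

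Mertk, Axl and Tyro3 are receptor tyrosine kinases. They do not bind a dying cell themselves: Gas6 and protein S, the product of Pros1, attach to phosphatidylserine exposed on the dying cell with a vitamin K-dependent domain and engage the receptor with the other end. Mfge8 does the same job for integrins that contain the alpha v chain. Cd36, Msr1 and Stab1 bind oxidised lipids, modified lipoproteins or phosphatidylserine directly. In the brain, Mertk and Axl are known as receptors of microglia, whereas Tyro3 is known mainly from neurons and oligodendrocytes, and Gas6 and Mfge8 are also made by cells other than microglia.

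By the thresholds of the study, a fold change over 2 with an unadjusted p under 0.05, Mertk and Pros1 were higher with GW2580 and Tyro3 and Mfge8 were lower (edgeR's quasi-likelihood F test, n = 5 per group). Among all genes tested, 10.7% passed these thresholds, 4.01% as higher and 6.70% as lower. The study, which does not name the test it used within edgeR, reported fewer genes past them. A mean level of at least 20 CPM was found for 7580 genes, of which 8.27% passed, 0.976% as higher and 7.30% as lower, and 6 of the 9 genes were at this level, with Mertk and Pros1 higher and Mfge8 lower. After Benjamini-Hochberg adjustment over all genes tested, 0 of the 9 genes were under 0.05, and the smallest adjusted p among them was 0.281 for Pros1. An unadjusted p under 0.05 was found for 4 of the 9 genes and for 14.7% of all genes (6.61% higher and 8.12% lower), and no gene of the whole table had an adjusted p under 0.05 in this test. DESeq2 put 177 and edgeR's likelihood ratio test 53 genes of the table under an adjusted p of 0.05, with 0 of the 9 genes among them, and limma-voom put 0 there (smallest adjusted p of the 9 genes 0.154, 0.175 and 0.328, each for Pros1). The groups overlapped for 9 of the 9 genes, and 3.03% of all genes had groups that did not overlap (2.04% higher and 0.985% lower). The median log2 fold change of the 9 genes was 0.37, against -0.03 over all genes tested. Single libraries moved it: the middle gene was Msr1 at 0.04 without GW2580 3 and Axl at 0.64 without Vehicle 5.

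Fragments assigned to genes ranged from 12550418 to 20854218 with Vehicle and from 13228819 to 26079343 with GW2580, and 38.4% to 49.1% and 38.7% to 60.1% of the counting records lay on no annotated exon. The labelled cell type was checked with 9 microglial markers, among them Tmem119, P2ry12 and Siglech. Their summed level was 14310 to 21570 CPM with Vehicle and 15800 to 55980 CPM with GW2580, the highest in GW2580 3. Of these 9 markers, 8 had a positive log2 fold change, with a median of 0.49, and 2 were called higher by the thresholds above, Csf1r, the receptor that the drug targets (2.43-fold), and Cx3cr1 (2.20-fold), against 2.16-fold for Mertk and 2.14-fold for Pros1. In the fit without Vehicle 2 and Vehicle 5 neither marker was called (log2 fold change 1.51 for Csf1r and 1.00 for Cx3cr1). The study itself reported for Csf1r a trend towards higher levels that did not reach significance. The 8 border macrophage markers summed to 88.6 to 113 CPM with Vehicle and to 54.2 to 281 CPM with GW2580, again highest in GW2580 3, and of the 6 tested, 4 had a positive log2 fold change and 1, Mrc1, was called higher (2.14-fold). Without Vehicle 2 and Vehicle 5, Mrc1 was not called (log2 fold change 0.87). F13a1 (1.53) and Cd163 (1.28) were then called higher and Ms4a7 (-1.525) lower. The part of these 2 marker lists in the levels of the 9 genes was not tested. Negative log2 fold changes with all libraries were found for 6 of 6 choroid plexus and ependymal markers tested (median -2.595, 5 called lower). The same held for 7 of 7 oligodendrocyte (-2.001, 4 called) and 8 of 8 astrocyte markers (-1.441, 1 called). It held for 7 of 8 neuronal (-1.22, 2 called) and 9 of 10 monocyte and granulocyte markers (-0.964, 1 called). The endothelial (4 of 7, -0.063) and mural markers (3 of 6, -0.339) had 0 called. Sums of markers of other cells stood apart in 3 control libraries. In Vehicle 5, the 7 choroid plexus and ependymal markers summed to 27140 CPM, against 1210 to 2965 CPM in the other Vehicle libraries and 164 to 3531 CPM with GW2580. Its 8 endothelial markers summed to 154 CPM, against 60.3 to 79.9 CPM in the other Vehicle libraries and 77.3 to 105 CPM with GW2580. For the 7 mural markers these sums were 156 CPM, 57.0 to 75.3 CPM and 44.6 to 82.5 CPM. In Vehicle 2 and Vehicle 5, the 8 oligodendrocyte markers summed to 17580 and 3889 CPM, against 158 to 309 CPM in the other Vehicle libraries and 171 to 1736 CPM with GW2580. The 8 astrocyte markers summed to 3061 and 1285 CPM in these 2 libraries and to 196 to 242 CPM in the other Vehicle libraries, against 198 to 648 CPM with GW2580. GW2580 4 had the highest GW2580 sums of astrocyte (648 CPM), oligodendrocyte (1736 CPM) and neuronal markers (147 CPM). In Vehicle 1, the 10 monocyte and granulocyte markers summed to 25560 CPM, against 519.7 to 7393 CPM in the other Vehicle libraries and 572 to 11420 CPM with GW2580. Without Vehicle 1 the log2 fold changes were 1.07 for Mertk, which was then not called, 1.06 for Pros1, -1.28 for Tyro3 and -2.10 for Mfge8, which were, and -0.54 for Gas6, 0.50 for Axl, 0.67 for Cd36, 0.59 for Msr1 and 0.28 for Stab1. The border macrophage marker Clec10a and the endothelial marker Cldn5 had 0 counts in all 10 libraries. Rxrb, Ppard, Cxcl16 and Ager, on the lists of other genes of phagocytic uptake, also had 0 counts. Such zeros are therefore not read as the absence of a cell type. The fold changes of the 9 genes and of the other genes named for their response, the ratios and the correlations between the 9 genes are therefore also given without Vehicle 2 and Vehicle 5. That fit does not even out the cell mixture. In it Mbp (2.15), Mobp (2.06), Olig1 (1.88), Aldoc (1.76), Slc17a7 (1.88), Snap25 (1.01) and Clic6 (1.53), markers of other cells, were called higher with GW2580. Plac8 (-1.94), Ly6c2 (-1.83) and Ccdc153 (-2.15) were called lower (log2 fold changes). In RNA from a mixed pool, fewer cells of a type and less RNA per cell cannot be told apart.

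**Figure D1:**
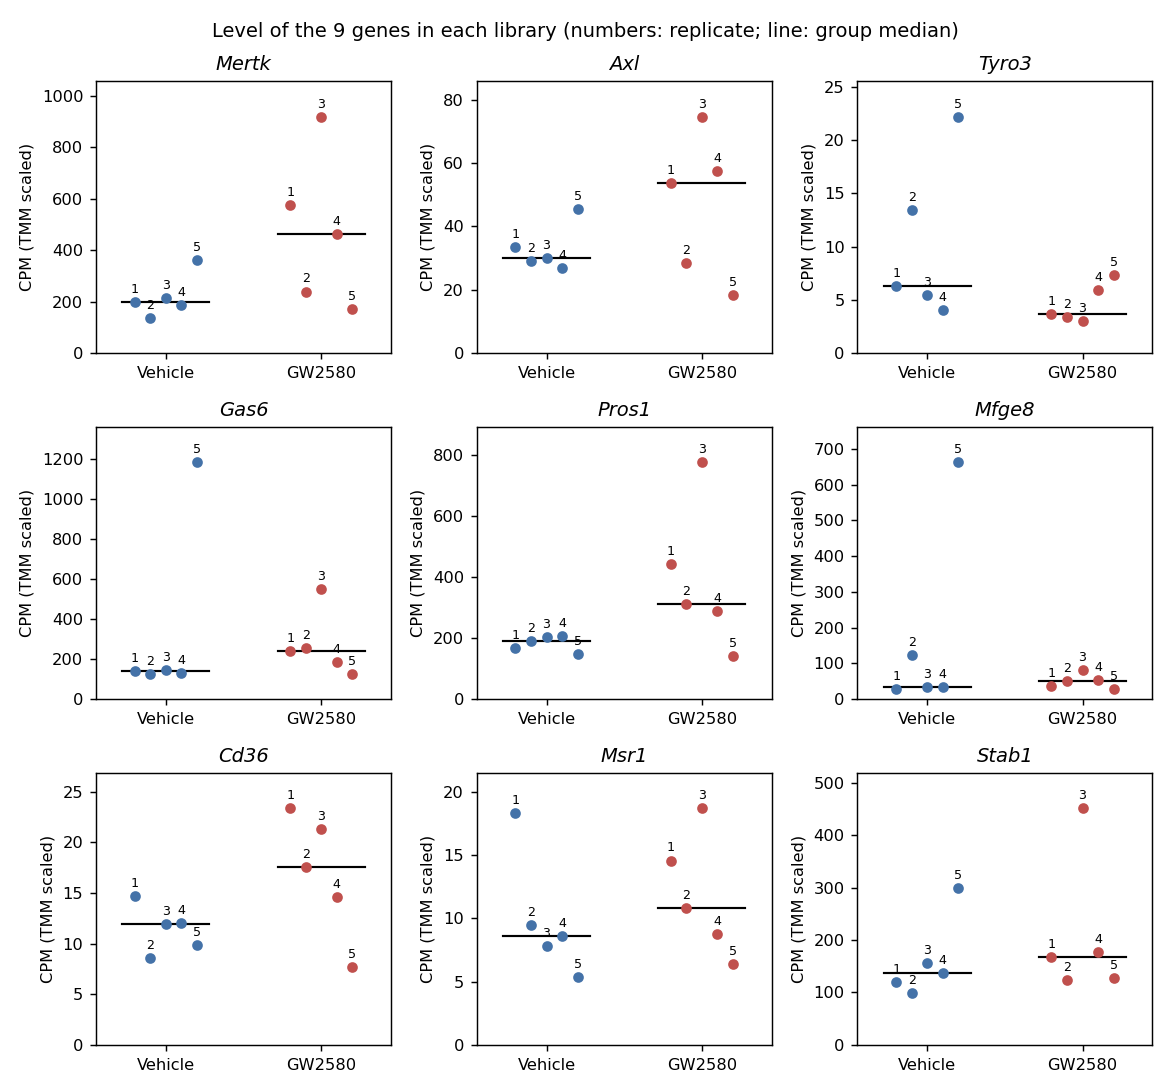
Level of the 9 genes in each library, in CPM after TMM scaling on a linear axis from 0, with each point a mouse numbered by its replicate and the line at the median of its group. Vehicle 5 stands far above the other Vehicle libraries for Gas6 (1183 CPM) and Mfge8 (662 CPM), and GW2580 3 is the highest GW2580 library for 7 of the 9 genes.

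The kinase called higher was Mertk (NCBI gene 17289, GRCm38 chromosome 2 from 128698915 to 128803162, plus strand), the main TAM receptor of tissue macrophages. It stood at 200.4, 137, 215, 188 and 361 CPM in Vehicle 1 to 5 and at 577, 240.1, 919.9, 463 and 172 CPM in GW2580 1 to 5. GW2580 1, GW2580 3 and GW2580 4 exceeded all Vehicle libraries, while GW2580 2 and GW2580 5 lay within the Vehicle range. Mean levels were 220.2 ± 83.9 CPM in the Vehicle group against 474 ± 298 CPM (SD, n = 5 per group). The log2 fold change was 1.11 ± 0.47 (SE; 95% confidence interval 0.11 to 2.11), with p = 0.0321 and an adjusted p of 0.305 by edgeR and p = 0.0873 by the two-sided exact permutation test, where 0.00794 is the smallest p that 5 against 5 libraries allow. Without GW2580 3, the library with the highest microglial marker sum, the log2 fold change was 0.72 ± 0.41 (SE) and the call was lost. It was also lost without Vehicle 1, Vehicle 2, Vehicle 3, Vehicle 4 or GW2580 1 (log2 fold change 0.97 to 1.10). Without Vehicle 2 and Vehicle 5 it was 1.22 ± 0.55 (SE) and the call was kept.

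Axl (NCBI gene 26362, GRCm38 chromosome 7 from 25756500 to 25788924, minus strand) is the TAM receptor that inflammation is known to raise in myeloid cells. It was at 33.6, 29.1, 29.9, 26.8 and 45.6 CPM in Vehicle 1 to 5 and at 53.8, 28.4, 74.7, 57.6 and 18.3 CPM in GW2580 1 to 5. The GW2580 libraries spanned the Vehicle libraries on both sides, with 3 above all of them and 1 below. The log2 fold change of 0.50 ± 0.38 (SE; 95% confidence interval -0.31 to 1.30) did not pass the test (p = 0.205 and adjusted p = 0.538 by edgeR, exact permutation p = 0.381). It was 0.62 ± 0.42 (SE) without Vehicle 2 and Vehicle 5 and 0.26 ± 0.36 (SE) without GW2580 3, with no call in either fit.

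Tyro3 (NCBI gene 22174, GRCm38 chromosome 2 from 119797740 to 119818104, plus strand) was the least abundant of the 3 kinases per length. Its levels were 6.35, 13.4, 5.43, 4.08 and 22.2 CPM in Vehicle 1 to 5 and 3.65, 3.36, 3.00, 5.92 and 7.31 CPM in GW2580 1 to 5, resting on 51 to 395 counts per library. The 2 high values were those of Vehicle 2 and Vehicle 5, and the other 3 Vehicle libraries overlapped the GW2580 libraries. The log2 fold change was -1.15 ± 0.47 (SE; p = 0.0276 and adjusted p = 0.298 by edgeR, exact permutation p = 0.111). Without Vehicle 5 it was -0.66 ± 0.38 (SE) and without both of these libraries -0.19 ± 0.35 (SE), with no call in either fit. The call was also lost without Vehicle 2, GW2580 1, GW2580 2 or GW2580 3, with log2 fold changes of -1.03, -1.06, -1.05 and -1.02, close to that of all libraries. The 8 neuronal markers summed to 492 CPM in Vehicle 2 and 206 CPM in Vehicle 5, against 58.4 to 68.7 CPM in the other Vehicle libraries and 50.7 to 147 CPM with GW2580, so that Vehicle 2 was above Vehicle 5 for these markers and below it for Tyro3. Over the 10 libraries Tyro3 had an r of 0.81 with the choroid plexus and ependymal, 0.80 with the astrocyte, 0.77 with the oligodendrocyte and 0.76 with the neuronal markers, and of -0.78 with the microglial markers, as a description.

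**Figure D2:**
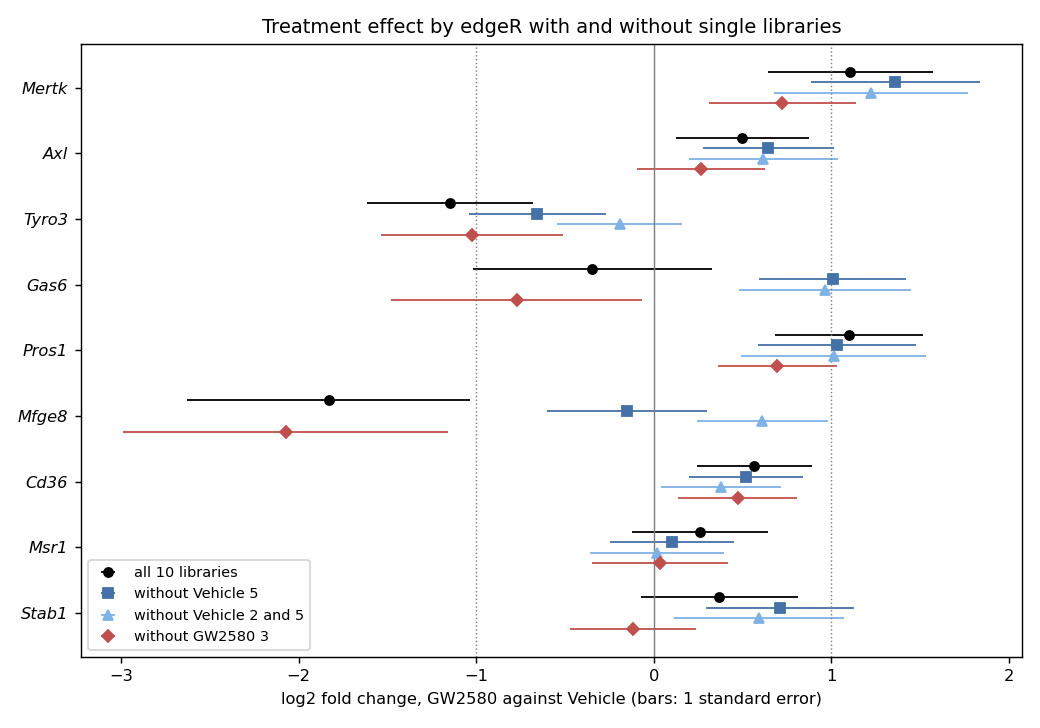
Log2 fold change of each gene with GW2580 against Vehicle by edgeR, with bars of 1 standard error, for all 10 libraries and for fits without Vehicle 5, without Vehicle 2 and Vehicle 5, and without GW2580 3; dotted lines mark a fold of 2. Gas6 and Mfge8 move most when Vehicle 5 is left out (Gas6 from -0.35 to 1.01, Mfge8 from -1.83 to -0.15).

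Pros1 (NCBI gene 19128, GRCm38 chromosome 16 from 62854307 to 62929346, plus strand) encodes protein S, a plasma anticoagulant that also serves as a ligand of Mertk and Tyro3. It was at 169, 190.0, 202, 207 and 148 CPM in Vehicle 1 to 5 and at 444, 311, 776, 289 and 142 CPM in GW2580 1 to 5. The Vehicle libraries were close to each other (183 ± 24.7 CPM, SD, n = 5), 4 of the 5 GW2580 libraries lay above all of them, and GW2580 5 lay below. The log2 fold change was 1.10 ± 0.42 (SE; 95% confidence interval 0.20 to 1.99, p = 0.0196, adjusted p = 0.281, edgeR; exact permutation p = 0.0556). It was 0.70 ± 0.34 (SE) without GW2580 3 and 1.01 ± 0.52 (SE) without Vehicle 2 and Vehicle 5, and the call was lost in both fits. Across libraries Pros1 went with the mean log2 level of the microglial markers and less closely with that of the border macrophage markers, and against that of the mural cell markers (Pearson's r = 0.86, 0.71 and -0.82 over 10 libraries, which share their scaling, given as a description).

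Gas6 (NCBI gene 14456, GRCm38 chromosome 8 from 13465374 to 13494535, minus strand) encodes the ligand that binds all 3 kinases, and binds Axl most tightly. It was at 140.4, 126, 144.5, 128 and 1183 CPM in Vehicle 1 to 5 and at 240.2, 256, 549.5, 183 and 126 CPM in GW2580 1 to 5. Vehicle 5 was at 8.77 times the mean of the other Vehicle libraries. It had the highest sums of choroid plexus and ependymal, endothelial and mural markers of the 10 libraries. Over the 10 libraries Gas6 had an r of 0.62 with the choroid plexus and ependymal, 0.59 with the endothelial and -0.07 with the mural markers, as a description. With the oligodendrocyte markers it was 0.475 and with the astrocyte markers 0.43. The part of these cells in the level of Gas6 was not tested. Among the other 9 libraries, GW2580 1 to 4 lay above all 4 Vehicle libraries and GW2580 5 at their lower edge. With all libraries, the log2 fold change was -0.35 ± 0.67 (SE; p = 0.615 by edgeR, exact permutation p = 0.770). Without Vehicle 5 it was 1.01 ± 0.41 (SE), past both thresholds of the edgeR test and in the opposite direction, and without Vehicle 2 and Vehicle 5 it was 0.96 ± 0.48 (SE), which did not pass. In that last fit the choroid plexus marker Clic6 was called higher with GW2580 and the ependymal marker Ccdc153 lower. An exon of Gas6 shares 63 bases with an exon of Tmem255b on the other strand, and the counts do not use strand.

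Mfge8 (NCBI gene 17304, GRCm38 chromosome 7 from 79133768 to 79149060, minus strand) encodes the lactadherin bridge to alpha v integrins. It was at 27.9, 124, 34.4, 34.6 and 662 CPM in Vehicle 1 to 5 and at 36.5, 51.3, 80.7, 52.45 and 27.6 CPM in GW2580 1 to 5. The highest libraries were again Vehicle 5 and Vehicle 2, and the other 3 Vehicle libraries lay at or below 34.6 CPM, under 4 of the 5 GW2580 libraries. The log2 fold change of -1.83 ± 0.80 (SE; p = 0.0378 and adjusted p = 0.316, edgeR) had an exact permutation p of 0.532. It was -0.15 ± 0.45 (SE) without Vehicle 5 and 0.61 ± 0.37 (SE) without Vehicle 2 and Vehicle 5, with no call in either fit. Oligodendrocyte and astrocyte markers, among them Mbp and Aldoc, were called higher with GW2580 in the latter fit. The call was also lost without GW2580 1, GW2580 2, GW2580 4 or GW2580 5, with log2 fold changes of -1.72, -1.83, -1.84 and -1.70, close to that of all libraries. Across the 10 libraries Mfge8 went with the oligodendrocyte, astrocyte and choroid plexus markers (r = 0.87, 0.85 and 0.84, descriptions over libraries that share their scaling). Their part in the levels of Gas6, Mfge8 and Tyro3 was not tested.

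**Figure D3:**
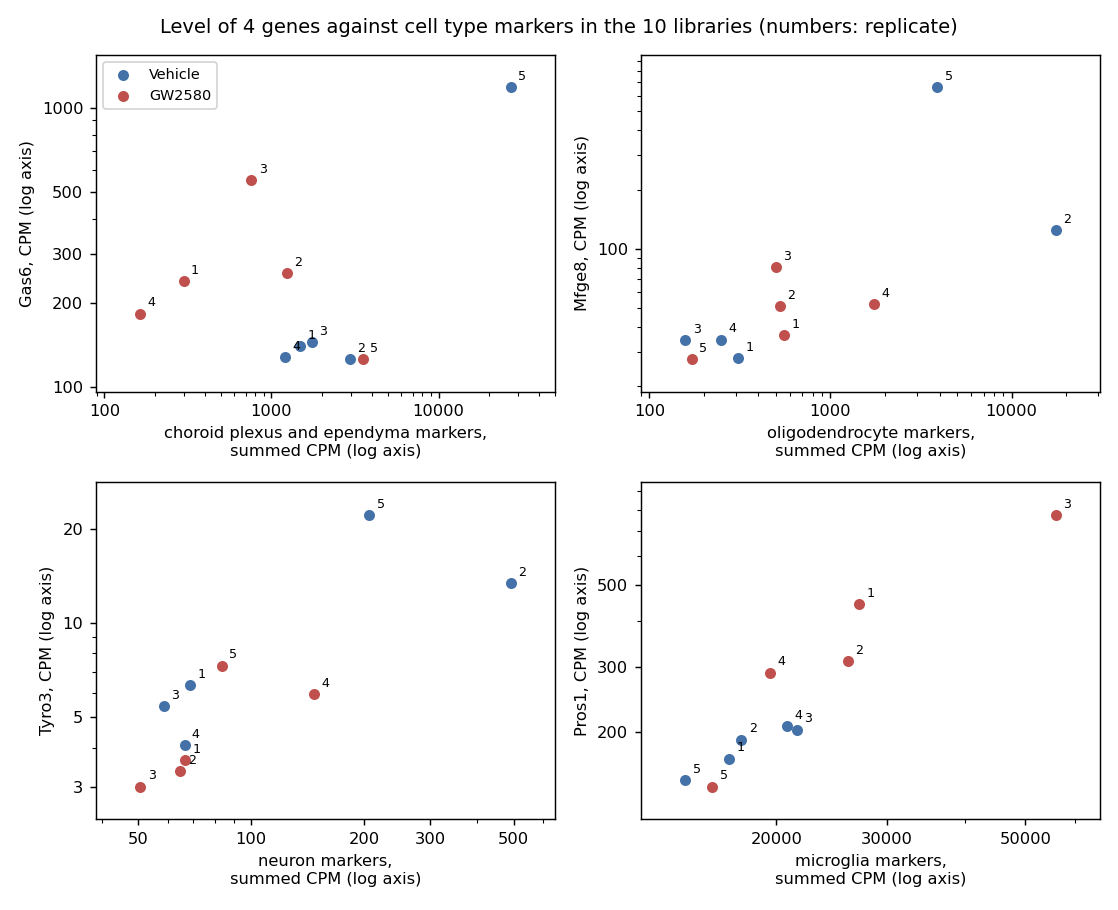
Level of Gas6, Mfge8, Tyro3 and Pros1 against the summed CPM of marker genes of 1 cell type in the 10 libraries, on log axes; points are numbered by replicate. Vehicle 5 (choroid plexus and ependyma markers 27140 CPM) is the highest library for Gas6, Mfge8 and Tyro3, Vehicle 2 (oligodendrocyte markers 17580 CPM) comes next for Mfge8 and Tyro3 but is low for Gas6, and Pros1 follows the microglia markers, up to 55980 CPM in GW2580 3.

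None of the 3 scavenger receptors passed the thresholds, and all 3 had a positive log2 fold change. Cd36 (NCBI gene 12491, GRCm38 chromosome 5 from 17781690 to 17888959, minus strand), a receptor for oxidised lipids and long-chain fatty acids, was at 14.7, 8.54, 11.95, 12.1 and 9.83 CPM in Vehicle 1 to 5 and at 23.4, 17.6, 21.3, 14.6 and 7.65 CPM in GW2580 1 to 5. GW2580 1 to 3 lay above every Vehicle library and GW2580 5 below every one, and the log2 fold change was 0.57 ± 0.33 (SE; p = 0.103 and adjusted p = 0.419 by edgeR, exact permutation p = 0.167) with all libraries and 0.38 ± 0.34 (SE) without Vehicle 2 and Vehicle 5.

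Msr1 (NCBI gene 20288, GRCm38 chromosome 8 from 39543232 to 39642750, minus strand), the class A scavenger receptor for modified lipoproteins, was at 18.3, 9.45, 7.85, 8.61 and 5.34 CPM in Vehicle 1 to 5 and at 14.6, 10.8, 18.7, 8.76 and 6.43 CPM in GW2580 1 to 5. The highest Vehicle library was Vehicle 1, which also had the highest monocyte and granulocyte markers, and the groups overlapped over most of their range. Over the 10 libraries Msr1 had an r of 0.27 with these markers, as a description. With the border macrophage markers it was 0.79 and with the microglial markers 0.68, and the part of these cells in Msr1 was not tested. The log2 fold change of Msr1 was 0.26 ± 0.38 (SE; p = 0.508 by edgeR, exact permutation p = 0.492). Without Vehicle 2 and Vehicle 5 it was 0.02 ± 0.38 (SE).

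Stab1 (NCBI gene 192187, GRCm38 chromosome 14 from 31139017 to 31168651, minus strand) encodes stabilin-1, which binds phosphatidylserine and modified lipoproteins. It was at 119.5, 99.5, 156, 138 and 298 CPM in Vehicle 1 to 5 and at 168, 124, 451, 176 and 128 CPM in GW2580 1 to 5. A single library was high in each group, Vehicle 5 and GW2580 3. The log2 fold change was 0.37 ± 0.44 (SE; p = 0.416 by edgeR, exact permutation p = 0.5), and it was -0.12 without GW2580 3 and 0.59 ± 0.48 (SE) without Vehicle 2 and Vehicle 5. Exons of Stab1 share 358 bases with exons of Nt5dc2 and Gm52148 on the other strand.

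Levels were compared between genes per kilobase of exon, in CPM per kilobase. In the Vehicle group the order of the medians was Pros1 (55.9), Gas6 (54.1), Mertk (39.5), Stab1 (17.2), Mfge8 (16.3), Axl (5.67), Cd36 (2.94), Tyro3 (1.26) and Msr1 (1.01). Neighbours in this order overlapped over the 5 libraries except at 2 steps, from Mfge8 to Axl and from Axl to Cd36. In the GW2580 group the medians of Gas6 (92.6), Pros1 (91.4) and Mertk (91.1) lay close together, and they were followed by Mfge8 (24.1), Stab1 (21.0), Axl (10.2), Cd36 (4.34), Msr1 (1.26) and Tyro3 (0.723). The only step without overlap there was from Stab1 to Axl. Tyro3 was the lowest kinase in both groups, and the medians of Pros1 and Gas6 were at least as high as that of Mertk in both.

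A ratio of 2 genes within a library does not depend on the scaling of that library, and 3 such ratios were computed per kilobase, chosen after the files had been opened. Mertk to Axl was 6.19, 4.89, 7.45, 7.31 and 8.23 in Vehicle 1 to 5 and 11.1, 8.78, 12.8, 8.35 and 9.79 in GW2580 1 to 5. Every GW2580 library had a higher ratio than every Vehicle library, although neither gene alone separated the groups. The mean log2 ratio was higher by 0.58 with GW2580 (two-sided exact permutation p = 0.00794, the smallest possible). Benjamini-Hochberg adjustment of this permutation p over the 3 ratios gave 0.0238. The 9 genes form 36 pairs, and an adjustment over the 3 chosen ratios does not account for that choice. For comparison, the ratio to Axl was higher without overlap for 0.289% of the other 28418 genes (0.251% of those with a mean of at least 20 CPM), and lower without overlap for 0.0457%. The gap between the groups was narrow, from 8.23 in Vehicle 5 to 8.35 in GW2580 4. The difference was 0.47 to 0.66 with any 1 library left out, 0.53 without Vehicle 2 and Vehicle 5, 0.85 in the 2 against 2 male libraries and 0.41 in the 3 against 3 female libraries. Groups that do not overlap stay apart in every such subset, so these values give only the size. Over the 10 libraries the log2 ratio had an r of -0.63 with the mural cell, 0.57 with the microglial, -0.56 with the neuronal and -0.52 with the monocyte and granulocyte markers. Without Vehicle 2 and Vehicle 5 these were -0.75, 0.67, -0.06 and -0.60 over 8 libraries. The part of these markers in the difference was not tested.

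The 2 vitamin K-dependent ligands were at nearly equal levels per kilobase in most libraries. Gas6 to Pros1 was 0.810 to 1.09 in Vehicle 1 to 4 and 0.709 to 1.17 in the GW2580 group, and 10.5 in Vehicle 5 alone. The mean log2 ratio differed by -0.69 with Vehicle 5 (exact permutation p = 0.548) and by 0.01 without it (p = 0.921), and by -0.02 without Vehicle 2 and Vehicle 5. Mertk to Tyro3 ranged from 10.1 to 45.9 with Vehicle and from 23.4 to 304 with GW2580, with the groups overlapping. Its mean log2 ratio was higher by 1.88 with GW2580 (exact permutation p = 0.0397, 0.0595 adjusted over the 3 ratios), and by 1.24 without Vehicle 2 and Vehicle 5 (p = 0.196). With 1 library left out it was 1.44 (without GW2580 3) to 2.37 (without GW2580 5). The exact permutation p then stayed under 0.05 only without Vehicle 3, Vehicle 4 or GW2580 5, and was up to 0.0873 otherwise.

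**Figure D4:**
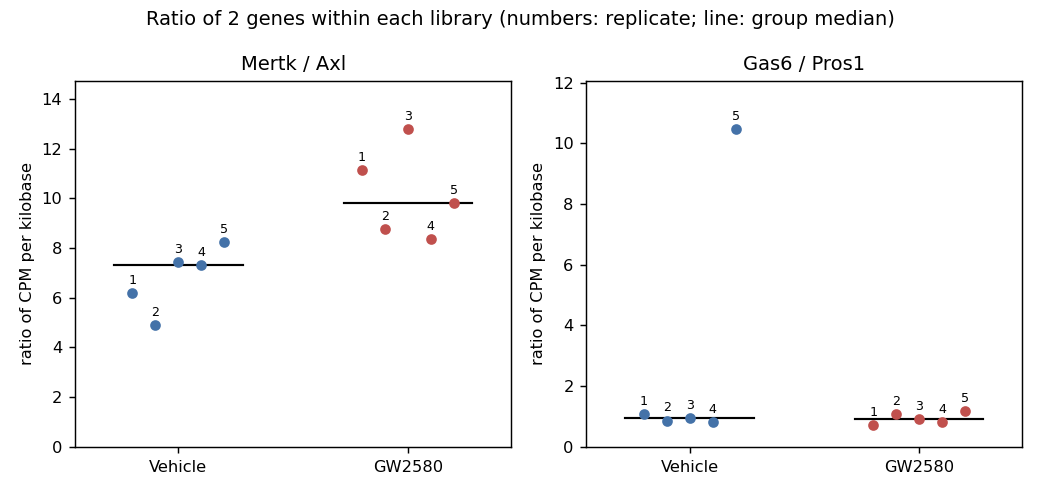
Ratio of Mertk to Axl and of Gas6 to Pros1 in each library, each in CPM per kilobase of exon, on linear axes from 0, with the median of each group as a line and points numbered by replicate. The Mertk to Axl ratio is 4.89 to 8.23 with Vehicle and 8.35 to 12.8 with GW2580, and Gas6 to Pros1 is near 1 in all libraries but Vehicle 5 (10.5).

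Some of the genes varied together from mouse to mouse and others did not. In CPM after TMM scaling, GW2580 3 was the highest library of its group for 7 of the 9 genes, all but Tyro3 and Cd36. GW2580 5 was the lowest for 7 of the 9, all but Tyro3 and Stab1. Vehicle 5 was the highest Vehicle library for 6 of the 9. The TMM factor, which multiplies the library size, ran from 0.691 in GW2580 3 to 1.61 in GW2580 4, so these ranks depend on the scaling. GW2580 3 and Vehicle 5 also had the most assigned fragments of their groups (26079343 and 20854218). Over the 10 libraries the r with log2 assigned fragments ran from -0.013 for Tyro3 to 0.75 for Stab1. Pearson's r of the log2 levels over the 10 libraries was positive for 26 and negative for 10 of the 36 pairs, from -0.74 to 0.92 with a median of 0.43. It was highest between Mertk and Axl (0.92), followed by Pros1 with Cd36 (0.85), Mertk with Stab1 (0.84), Gas6 with Stab1 (0.82) and Mertk with Pros1 (0.82). Within the GW2580 group 28 of the 36 pairs were positive, Mertk with Pros1 at 0.92 among them, and within the Vehicle group 19 were, with Mertk and Pros1 at -0.71, Axl and Pros1 at -0.96 and Gas6 and Pros1 at -0.83, on 5 libraries each. Tyro3 had an r of -0.74 with Cd36 and -0.70 with Pros1, and of 0.71 with Mfge8 and 0.26 with Gas6. Mfge8 was at -0.39 with Msr1, -0.24 with Cd36 and -0.11 with Pros1. Over the 8 libraries other than Vehicle 2 and Vehicle 5, 28 of the 36 pairs were positive, Mertk and Axl were at 0.94 and Tyro3 and Mfge8 at -0.69. These values are descriptions over libraries that share their depth, scaling and cell mixture.

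Among the 7580 genes with a mean of at least 20 CPM, those most like Mertk over the 10 libraries were the endosomal receptor Tlr13 (r = 0.998), the sheddase Adam17 (0.995) and the TGF-beta receptor Tgfbr2 (0.994). Adam17 encodes the protease that is known to cut Mertk from the cell surface, and it was on the list of TAM related genes. Each r in this paragraph is among the highest of 7580 genes over 10 libraries that share their depth, scaling and cell mixture. It describes likeness in level only. The genes most like Pros1 were the iron exporter Slc40a1 (0.991), Nrf1 (0.986) and Il13ra1 (0.981). Axl was most like Gpd1l, Pacs1 and Pik3r5 (0.948 to 0.956), and Tyro3 was most like Gas7, Arhgef17 and Shank2 (0.932 to 0.944). Gas6 was most like Gars, Slc23a2 and Aldh9a1 (0.992 to 0.994), and Mfge8 was most like Kcnk1, Aldh7a1 and Syt11 (0.989 to 0.990). Stab1 was most like Gnaq, Soga1 and Rnpepl1 (0.979 to 0.983), while Cd36 and Msr1 had weaker best matches, Nrp1, Slc27a4 and Tlr2 (0.910 to 0.913) and Pirb, Pmaip1 and Lpl (0.874 to 0.885).

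Male and female mice were compared within the same model. Mertk was at 169 CPM in male and 255 CPM in female Vehicle mice on average (n = 2 and 3) and at 409 and 518 CPM with GW2580. Pros1 was at 179 and 186 CPM with Vehicle and at 378 and 402 CPM with GW2580. Their log2 fold changes were 1.28 in males and 1.03 in females for Mertk, and 1.07 and 1.11 for Pros1. Gas6 was 0.90 in males and -0.76 in females, the sex of Vehicle 5. The test of sex by treatment gave unadjusted p from 0.235 to 0.966 over the 9 genes (edgeR), so that no difference between the sexes in the response was detected with 2 and 3 mice per group. Levels were not tested between the sexes.

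Of 77 other genes of phagocytic uptake, 67 entered the test, and 4 were higher and 5 lower with GW2580 by the same thresholds, or 5.97% and 7.46% against 4.01% and 6.70% of all genes. Their median log2 fold change was -0.05, and after adjustment 0 were under 0.05 (edgeR). These shares are near those of all genes.

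Among 13 other receptors for apoptotic cells, the integrin chain Itgb5 was higher (1180 ± 317 CPM against 2515 ± 1713 CPM, Vehicle before GW2580 here and in the values that follow, SD, n = 5; log2 fold change 1.09, exact permutation p = 0.0873) and Adgrb1, a phosphatidylserine receptor also called BAI1, was lower (11.2 ± 7.26 and 4.43 ± 2.99 CPM; -1.34, exact permutation p = 0.0397). Among 10 other scavenger receptors, the mannose receptor Mrc1, which is also a border macrophage marker, was higher (14.9 ± 4.47 and 31.8 ± 20.3 CPM; 1.10, exact permutation p = 0.0873), Scara3 was lower (-1.94, p = 0.2302), and Cd68, the highest in CPM, was at 1770 ± 813 and 1210 ± 592 CPM.

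Among 8 genes of ligand carboxylation, receptor shedding and signalling, the protease Adam10 was higher (64.99 ± 10.7 and 176 ± 106 CPM; 1.44 ± 0.42 SE, adjusted p = 0.280 by edgeR, exact permutation p = 0.0317), with 4 of 5 GW2580 mice above all Vehicle mice. The adaptor Nck2 was lower (-1.31, exact permutation p = 0.0397). Adam17 was at 78.1 ± 26.3 and 147.5 ± 84.7 CPM (0.92, exact permutation p = 0.119) and stayed under a fold of 2, and Socs3, which TAM signalling is known to induce, was at 448 ± 95.1 and 738 ± 466 CPM (0.72, p = 0.222).

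Of 15 genes of the engulfment machinery, 0 were higher and the scaffold Bcar1 was lower (-2.58, exact permutation p = 0.397), with its Vehicle libraries between 3.45 and 112 CPM. The gene of that list with the highest CPM, not divided by length, was Cdc42, which was at 662 ± 86.0 and 638 ± 272 CPM. Of 10 other bridging and opsonin genes, 0 passed the thresholds, and C1qb had the highest CPM with 13970 ± 6719 and 7589 ± 4014 CPM (-0.88, exact permutation p = 0.254). Among 5 nuclear receptors that act on phagocytic genes, Nr1h3, the liver X receptor alpha, was lower (6.37 ± 5.83 and 2.48 ± 0.635 CPM; -1.36, exact permutation p = 0.0635), and Nr1h2 was at 115.5 ± 76.0 and 122 ± 66.0 CPM. Among 6 genes of the do-not-eat-me group, Sirpa, the receptor for Cd47, was higher (809.8 ± 280.0 and 1847 ± 1215 CPM; 1.19, exact permutation p = 0.0873).

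Without Vehicle 2 and Vehicle 5 these lists gave 6 higher and 2 lower genes, against 1397 higher and 938 lower of 27463 genes in all. Of the 9 genes called with all libraries, Adam10 was the one still called (log2 fold change 1.47). The others had values of 1.19 for Itgb5, 0.87 for Mrc1, 1.31 for Sirpa, -0.63 for Adgrb1, 0.31 for Bcar1, 0.05 for Scara3, -0.58 for Nck2 and -0.29 for Nr1h3. The genes called in this fit alone, named after their values were seen, were Adam17 (1.03), Thbs1 (1.79), Elmo2 (1.23), Cd163 (1.28) and Crkl (1.16) as higher and Vkorc1 (-1.44) and Lgals3 (-1.34) as lower. The lists of other receptors for apoptotic cells, of nuclear receptors and of do-not-eat-me genes then had none past the thresholds, and the engulfment list had 2 higher and 0 lower.

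**Figure D5:**
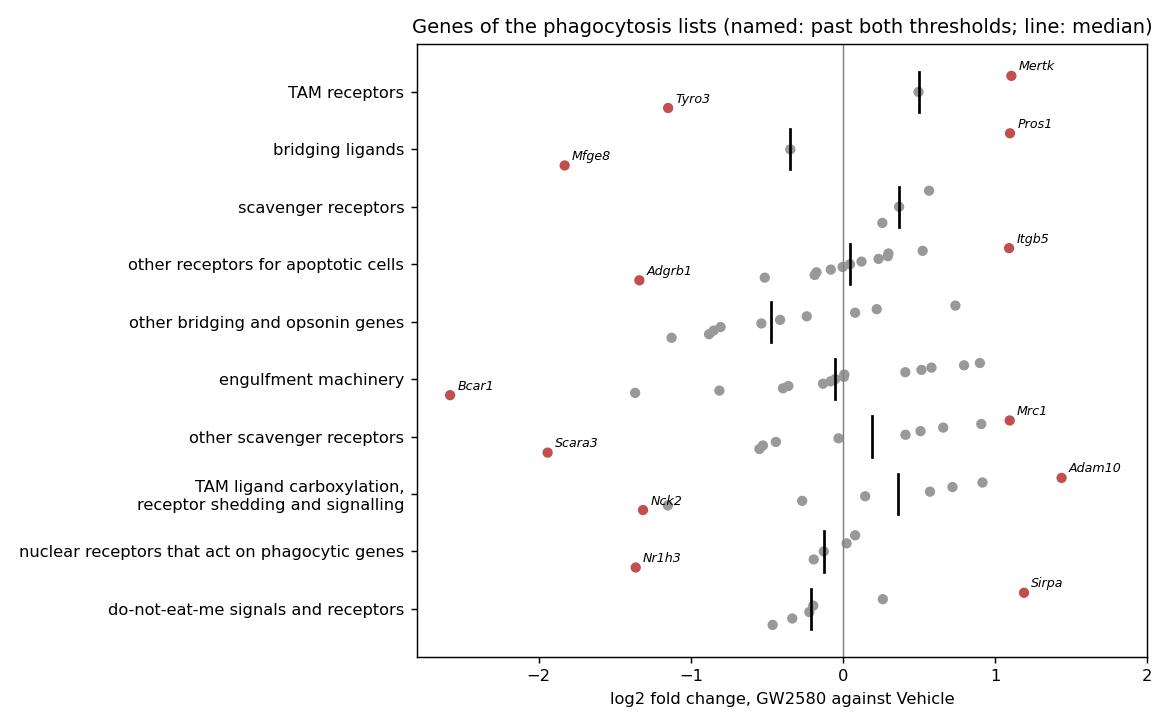
Log2 fold change with GW2580 against Vehicle (edgeR) of each tested gene of the 9 genes and of the 7 further lists, with the median of each list as a vertical line. Named red points passed a fold of 2 and an unadjusted p under 0.05; Bcar1 at -2.58 is the farthest point to the left and Adam10 at 1.44 the farthest to the right.

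The 250 bases before an annotated start of transcription were read from RefSeq (GRCm38.p6), 1 start for each gene, and 8 of the 9 genes had an entry, all but Msr1. The start used is the outer edge of the gene coordinates given above for Mertk, Gas6, Pros1 and Mfge8. For Axl, Tyro3, Cd36 and Stab1 it lies farther in, so that 191, 250, 250 and 10 of the 250 bases fall within the span of the gene itself. The stretches of the receptor and the ligand that were higher, Mertk (chr2:128698665-128698914, plus strand) and Pros1 (chr16:62854057-62854306, plus strand), are printed in the direction of the gene. Capitals mark GAGGAA, the core of sites for the myeloid factor PU.1, and GGGCGG, the GC box bound by Sp factors, each on either strand (TTCCTC and CCGCCC on the other strand), where matches may overlap.
Mertk: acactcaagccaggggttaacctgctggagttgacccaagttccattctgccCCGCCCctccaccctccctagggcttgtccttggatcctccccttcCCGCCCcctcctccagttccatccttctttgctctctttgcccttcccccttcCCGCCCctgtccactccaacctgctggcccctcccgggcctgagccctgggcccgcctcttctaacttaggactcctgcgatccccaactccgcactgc
Pros1: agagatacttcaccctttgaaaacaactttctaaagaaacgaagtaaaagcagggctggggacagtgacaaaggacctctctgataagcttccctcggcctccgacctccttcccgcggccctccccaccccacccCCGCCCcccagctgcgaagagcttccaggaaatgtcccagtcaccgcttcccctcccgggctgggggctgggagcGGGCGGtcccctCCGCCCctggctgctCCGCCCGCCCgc

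GAGGAA was found in 3 of the 8 stretches, those of Axl, Mfge8 and Stab1, and in 23.3% of the 32851 stretches of this length in the table. It was found neither in the Mertk nor in the Pros1 stretch. GGGCGG, a motif chosen after the sequences had been seen, was found in 7 of the 8, all but Stab1, and in 32.7% of all stretches. The number of matches was 3 in Mertk, 5 in Pros1, 3 in Tyro3, 4 in Mfge8, 4 in Gas6, 2 in Cd36 and 1 in Axl, so it did not set the genes called higher apart from the rest. G and C made up 63.6% of the Mertk and 64.4% of the Pros1 stretch and 43.2% (Cd36) to 73.2% (Tyro3) of all 8, against a median of 52.4% over the table. A match of letters is a description and shows no binding.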

How the data were processed

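RNA of CD11b-selected microglia from 10 mice was sequenced as SMART-Seq read pairs of 150 nt. The authors trimmed and aligned the pairs (STAR, GRCm38) and took the number of uniquely placed fragments on RefSeq exons, unstranded (featureCounts 1.6.3 per the file headers); the deposited counts are not normalized, and fragments on no exon, ambiguous or aligned to several places are left out of them. The deposited exon length gave levels per kilobase.

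The 9 genes and all lists were chosen with earlier results of these data known. Grouping, sex and numbering follow the labels. The filter was 1 CPM in at least 3 libraries (28419 of 46152 genes). After TMM scaling, treatment was the only term of edgeR's quasi-likelihood F test (edgeR 4.0.16, R 4.3.3), with p-values adjusted over all tested genes by Benjamini-Hochberg. SE is the log2 fold change divided by the square root of F. Single values were also tested by a two-sided exact permutation test over 252 splits. Log2 levels for correlations used a prior count of 2. On simulated counts of this comparison (27180 genes), 97.0% of 99 genes changed by 2 log2 units and 55.2% of 96 changed by 1 had p under 0.05, as did 4.38% of unchanged genes. Tests rest on the spread between mice, and reads carried no molecular identifiers.

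Alternatives were DESeq2 1.42.0, edgeR's likelihood ratio test, limma-voom (limma 3.58.1), other scalings, filters and prior counts (0.5 and 5), sex, a replicate block, and libraries left out. Besides the 9 genes, the text names for each list the gene of highest mean CPM and the called gene of smallest p in each direction, and for each of the 9 genes the 3 most correlated genes; Adam17 was named after its values were seen. Motifs were searched with Python 3.11.15, and figures drawn with matplotlib 3.10.9.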

Additional observations from a re-analysis of the deposited data

Results flagged for a closer look

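In 4 of the 18 groups of 5 libraries examined (9 genes in 2 groups), 1 library stood apart from the others by Dixon's criterion, applied to CPM. Chance alone meets it in about 1 in 20 independent groups of normally distributed values. The groups here share their libraries, and CPM were not put on a log scale for it, so 4 of 18 cannot be set against that rate. Gas6 was at 1183 CPM in Vehicle 5, against 126 to 144.5 CPM in the other Vehicle libraries. Mfge8 was at 662 CPM in Vehicle 5, against 27.9 to 124 CPM. Stab1 was at 298.4 CPM in Vehicle 5, against 99.5 to 156 CPM, and at 451.3 CPM in GW2580 3, against 124 to 176 CPM in the other GW2580 libraries. The choroid plexus and ependymal, endothelial and mural markers were highest in Vehicle 5 and the microglial markers in GW2580 3. Their part in these values was not tested.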

How the results depend on the processing

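The direction of Mertk, Axl, Tyro3, Pros1 and Cd36 was the same in all 22 alternative fits; calls were not. Leaving out 1 library moved the log2 fold change of Mertk between 0.72 and 1.36, of Axl between 0.26 and 0.64, of Tyro3 between -1.42 and -0.66, of Gas6 between -0.77 and 1.01, of Pros1 between 0.70 and 1.23, of Mfge8 between -2.10 and -0.15, of Cd36 between 0.43 and 0.68, of Msr1 between 0.04 and 0.60 and of Stab1 between -0.12 and 0.71. It left 1 to 3 of the 9 genes past the thresholds, and 1684 (without GW2580 1) to 4848 (without GW2580 5) of all genes, against 3046 with all libraries. Without Vehicle 2 and Vehicle 5, Tyro3 was at -0.19, Mfge8 at 0.61, Gas6 at 0.96 and Pros1 at 1.01. In that fit 1 of the 9 genes and 2335 of the 27463 genes tested (8.5%) were called. With limma-voom the values were -0.96 for Tyro3, 0.93 for Mertk, -0.71 for Mfge8, 0.21 for Gas6 and 0.89 for Pros1, and 0 of the 9 genes and 3016 of all genes were called. Without TMM factors the median gene moved to 0.23, the split of calls from 1141 higher and 1905 lower to 2123 higher and 875 lower, Tyro3 to -0.76 and Mfge8 to -1.54, and 2 of the 9 genes were called. With a filter of 5 CPM, Tyro3 was at -0.97 and Mfge8 at -1.64, 2 of the 9 genes and 1163 of all genes were called; without a filter 4802 were. With sex as a covariate Mfge8 was at -1.63. In male libraries alone Mertk was at 1.19, Pros1 at 0.98, Mfge8 at -0.89, Gas6 at 0.80, Msr1 at -0.22 and Tyro3 at -1.59, with 1 of the 9 genes (Tyro3) and 4621 of all genes called. In female libraries alone Mertk was at 1.05, Pros1 at 1.12, Tyro3 at -0.91 and Mfge8 at -2.13, with 0 of the 9 genes and 794 of all genes called. At an adjusted p under 0.05, 0 of the 9 genes and 0 of all genes passed (edgeR; 4186 had an unadjusted p under 0.05). DESeq2 gave no p for Gas6. The cause of these moves was not tested beyond the libraries left out.

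The replicate numbers gave no pairing: deviations from the group means of same-numbered libraries had r of 0.08, 0.14, -0.06, -0.07 and -0.39, and no library was most like its own number. With the replicate number as a block, Mertk was at 0.98, Pros1 at 0.89, Tyro3 at -0.96, Mfge8 at -0.46 and Gas6 at 0.41, with 0 of the 9 genes and 2554 of all genes called.

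The ratio of Gas6 to Pros1 turned from -0.69 to 0.011 without Vehicle 5. Mertk to Tyro3 went from 1.44 to 2.37 with 1 library left out. That of Mertk to Axl ranged from 0.47 to 0.66 with 1 library left out; its groups do not overlap, so a subset cannot show otherwise.

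With 51 counts at the lowest, Tyro3 has the largest counting error of the 9 genes, and 5 mice per group leave 95% confidence intervals of 0.11 to 2.11 for Mertk and 0.20 to 1.99 for Pros1 on the log2 scale.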
